A study of Mus musculus with 10 samples.

Results

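The study material was a set of 10 genes of fibroblast growth factor (FGF) signalling, followed through a comparison of 2 culture matrices. It comprised the receptors Fgfr1, Fgfr2, Fgfr3, Fgfr4 and Fgfrl1, the ligands Fgf1 and Fgf2, and the feedback inhibitors Spry1, Spry2 and Spry4. The genes were taken by symbol from a table of 18407 genes, in which all 10 were listed. They were selected on earlier results of these data, in which counts scaled to library totals were seen for the 5 laminin against the 5 collagen libraries. Their differences between matrices are therefore given as a description, and no test of a member is read as support. Counts were found for 9 of the 10 genes, and 8 passed the filter on low counts. Fgfr4 and Fgf2 did not pass and are given as counts.

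Poly(A) mRNA came from the NMC line of normal mouse cholangiocytes, the epithelial cells of bile ducts, grown for 6 days as 3D double spheroids with no other treatment. The collagen group (5 libraries) was embedded in collagen I at 1 mg/mL, and the laminin group (5 libraries) in laminin and collagen I mixed 3:1 by volume, so that collagen I was present in both. All 10 libraries came from the same line. The labels do not say how cultures were divided, so each error and p-value reflects only the spread among these libraries, which may be technical. Total counts ran from 4424725 to 8129979 per library. All 12 cholangiocyte markers examined had a mean of at least 1 CPM (counts scaled to the same library size with TMM factors), and their sum ran from 4069 to 6084 CPM, led by Krt8, Krt19 and Krt18. Of markers of other cell types, a mean of 1 CPM was reached by 0 of 7 endothelial, 1 of 7 leukocyte, 6 of 12 fibroblast and stellate and 4 of 8 hepatocyte genes. Cdh5 and Kdr (endothelial), Adgre1 (leukocyte), Lrat and Thy1 (fibroblast and stellate) and Cyp2e1 and Cyp3a11 (hepatocyte) were at 0 in every library, while the leukocyte marker Cd68 was at 2.88 to 7.93 CPM. Hepatocyte markers, led by Fah, Alb and Ttr, summed to 45.3 to 84.6 CPM in collagen and 64.2 to 97.5 CPM in laminin, the highest in replicate 4. Fibroblast and stellate markers summed to 57.3 CPM in laminin replicate 4 and to between 24.4 and 34.4 CPM in the other 9 libraries.

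FGF ligands are secreted proteins that bind heparan sulfate and dimerise receptor tyrosine kinases of the FGFR family. The active receptor phosphorylates the adaptor FRS2, which recruits GRB2 and SOS and switches on RAS and the ERK cascade. Sprouty proteins are made in response to the signal and dampen it, as do dual-specificity phosphatases that act on ERK. FGFRL1 binds ligands but lacks the kinase domain. In the liver, FGFR4 with its co-receptor beta-Klotho is the hepatocyte receptor for the gut hormone FGF15, which restrains bile acid synthesis, and fusions of human FGFR2 are recurrent drivers of intrahepatic bile duct cancer.

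The start regions of Fgfr2 and Fgfr3 are printed because these genes had the largest log2 differences between matrices among the 8 genes. RefSeq windows (GRCm38.p6) of 300 bases, from 250 before to 50 after a start, were matched for 7 of the 10 genes, in 8 windows. Capitals mark the GC box, GGGCGG or its reverse complement CCGCCC, the core of a common promoter element. In the second Fgfr3 window 2 GC boxes share a base. The sequences read 5′ to 3′ along the gene's strand.
Fgfr2, chr7:130266759-130267058, minus strand: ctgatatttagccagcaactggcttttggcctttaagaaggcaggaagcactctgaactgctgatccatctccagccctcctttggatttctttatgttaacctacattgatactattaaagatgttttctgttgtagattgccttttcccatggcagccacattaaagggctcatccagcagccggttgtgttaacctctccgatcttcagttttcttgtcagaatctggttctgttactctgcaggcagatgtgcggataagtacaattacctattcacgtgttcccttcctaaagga
Fgfr3 first start, chr5:33721474-33721773, plus strand: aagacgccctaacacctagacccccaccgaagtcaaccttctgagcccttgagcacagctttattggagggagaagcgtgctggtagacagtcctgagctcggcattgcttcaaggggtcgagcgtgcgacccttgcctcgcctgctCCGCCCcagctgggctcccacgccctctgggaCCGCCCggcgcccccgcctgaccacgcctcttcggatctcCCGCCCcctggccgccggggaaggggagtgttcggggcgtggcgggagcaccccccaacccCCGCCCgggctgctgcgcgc
Fgfr3 second start, chr5:33722056-33722355, plus strand: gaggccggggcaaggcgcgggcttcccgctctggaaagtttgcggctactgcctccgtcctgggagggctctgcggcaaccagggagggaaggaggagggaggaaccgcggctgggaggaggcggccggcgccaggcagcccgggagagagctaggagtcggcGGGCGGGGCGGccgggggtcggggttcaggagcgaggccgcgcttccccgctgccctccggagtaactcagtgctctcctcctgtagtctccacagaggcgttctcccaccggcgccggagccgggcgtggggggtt
The Fgfr2 window held 0 GC boxes and 4 CpG dinucleotides at 43.7% G+C, while the Fgfr3 windows held 4 and 2 GC boxes, 26 and 30 CpG dinucleotides, and 69.7% and 73.0% G+C. Of the 32851 RefSeq windows, 35.7% held a GC box on either strand, and 31.4% had fewer CpG dinucleotides than the Fgfr2 window, against 83.1% and 88.3% for the Fgfr3 windows. The TATA box letters TATAAA (13.6% of windows) were absent from all 8 member windows on both strands. The ETS core CCGGAAGT, the motif family bound by the ERK-responsive ETV factors (3.89% of windows), was present once, in the Fgfrl1 window. These letters describe the windows and do not show binding.

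Fgfr3, a receptor tyrosine kinase, had the largest difference between the matrices relative to its SE among the 8 genes. In collagen it was measured at 42.2, 45.5, 38.6, 38.2 and 50.8 CPM in replicates 1 to 5. In laminin it was measured at 95.1, 64.8, 85.3, 48.8 and 71.6 CPM. Laminin replicates 1, 2, 3 and 5 stood above every collagen library, and laminin replicate 4 fell within the collagen range, so the groups overlapped by this library. The means were 43.1 ± 5.23 and 73.1 ± 18.0 CPM (SD, n = 5 per group), a log2 difference of 0.76 (SE 0.17), or 1.70-fold. Without laminin replicate 4 the log2 difference was 0.86 (SE 0.14). In GRCm38, Fgfr3 lies on the plus strand of chromosome 5 from 33721674 to 33737068. Of its exonic bases, 13.9% overlap those of G630022F23Rik on the opposite strand, and whether the counting used strand is not given in the sources used here. Reads from fewer cells of a type and from less RNA per cell cannot be told apart in bulk samples such as these.

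Fgfr2, the receptor kinase of epithelia for several mesenchymal FGFs, had the largest log2 difference of the 8 genes with all libraries included, but not without laminin replicate 4, and it varied most among laminin libraries on the log2 scale. In collagen it was measured at 30.9, 28.0, 28.8, 20.7 and 26.0 CPM in replicates 1 to 5. In laminin it was measured at 49.2, 28.7, 49.4, 115 and 20.9 CPM. Laminin replicate 4 was far above the rest, replicates 1 and 3 stood above all collagen libraries, and replicates 2 and 5 lay inside the collagen range. The means were 26.9 ± 3.86 and 52.7 ± 37.1 CPM (SD, n = 5 per group), and the log2 difference was 0.98 (SE 0.36). Without laminin replicate 4 it was 0.45 (SE 0.24), below the 0.86 of Fgfr3 in the same fit. The within-group SD of Fgfr2 was 0.68 on the log2 CPM scale, larger than that of 99.0% of the 2159 tested genes of similar level, whose median SD was 0.24. In collagen alone the SD was 0.22, and in laminin it was 0.93.

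Laminin replicate 4 also held the highest sum of fibroblast and stellate markers, 57.3 CPM against at most 34.4 CPM elsewhere, and of hepatocyte markers, 97.5 CPM against at most 84.6 CPM elsewhere. Alb was at 62.0 CPM there, against 12.7 to 36.1 CPM in the others, with Cyp2e1 and Cyp3a11 at 0. Fah, Ttr and Apoa1 lay within the range of the other libraries. Fah was at 19.3 CPM there (16.7 to 49.8 CPM in the others), Ttr at 14.8 CPM (2.68 to 15.0 CPM) and Apoa1 at 1.20 CPM (0.690 to 4.07 CPM). In this library Col1a1 was at 29.2 CPM, against 8.16 to 16.4 CPM in the others, and Pdgfra at 13.5 CPM, against 2.64 to 11.2 CPM. Dcn was at 5.24 CPM there, above the other laminin libraries (2.30 to 3.83 CPM) and below all collagen libraries (6.35 to 9.63 CPM), and Lrat, Thy1, Lum and Acta2 were at 0. Their part in the Fgfr2 value was not tested. Counts here are per gene and do not separate the epithelial and mesenchymal splice forms of Fgfr2. Fgfr2 lies on the minus strand of chromosome 7 from 130162451 to 133123350 in GENCODE, a span that includes a transcript sharing exons with Ctbp2.

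Fgfr1, the receptor kinase most often associated with mesenchymal cells, was measured at 23.7, 23.0, 28.1, 19.7 and 23.7 CPM in collagen. In laminin it was measured at 20.7, 28.3, 33.5, 40.1 and 36.6 CPM. Laminin replicates 2 to 5 stood above every collagen library, and replicate 1 was below all but 1 of them. The means were 23.6 ± 2.97 and 31.8 ± 7.60 CPM (SD, n = 5 per group), a log2 difference of 0.42 (SE 0.17). With a fitted dependence on transcript length and GC content taken out it was 0.28 (SE 0.15), and without laminin replicate 1 it was 0.55 (SE 0.14). Of the fibroblast and stellate markers, Pdgfrb was at 0.423 to 0.801 CPM in collagen and at 1.26, 2.36, 6.07, 4.49 and 2.99 CPM in laminin. Pdgfra was at 2.64 to 5.22 CPM in collagen and at 3.36, 11.1, 11.2, 13.5 and 7.36 CPM in laminin. Both, like Fgfr1, were lowest among the laminin libraries in replicate 1. They are named after their values were seen, and other markers of the list went other ways. Dcn was at 6.35 to 9.63 CPM in collagen and at 2.30 to 5.24 CPM in laminin. Col1a1 was at 16.4 CPM in laminin replicate 1, above laminin replicates 2, 3 and 5 (8.16 to 8.75 CPM). The part of these markers in the Fgfr1 values was not tested. Fgfr1 lies on chromosome 8 from 25513654 to 25575718.

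Fgfr4, the hepatocyte-type receptor of the family, was hardly detected. It had 1 count in collagen replicate 2, 1 in laminin replicate 1 and 0 in the other 8 libraries. Its co-receptor gene Klb had 25 counts in collagen and 27 in laminin. The limit that a count of 0 allows, 3 counts, was 0.369 to 0.678 CPM per library. It covers counting error only.

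Fgfrl1, the receptor-like protein without a kinase domain, was measured at 24.4, 21.6, 35.6, 32.9 and 33.7 CPM in collagen and at 30.3, 25.0, 25.2, 40.7 and 41.9 CPM in laminin. The ranges overlapped widely. The log2 difference was 0.14 (SE 0.19), with means of 29.6 ± 6.22 and 32.6 ± 8.20 CPM (SD, n = 5 per group). Fgfrl1 lies on chromosome 5 from 108692382 to 108706924.

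**Figure D1:**
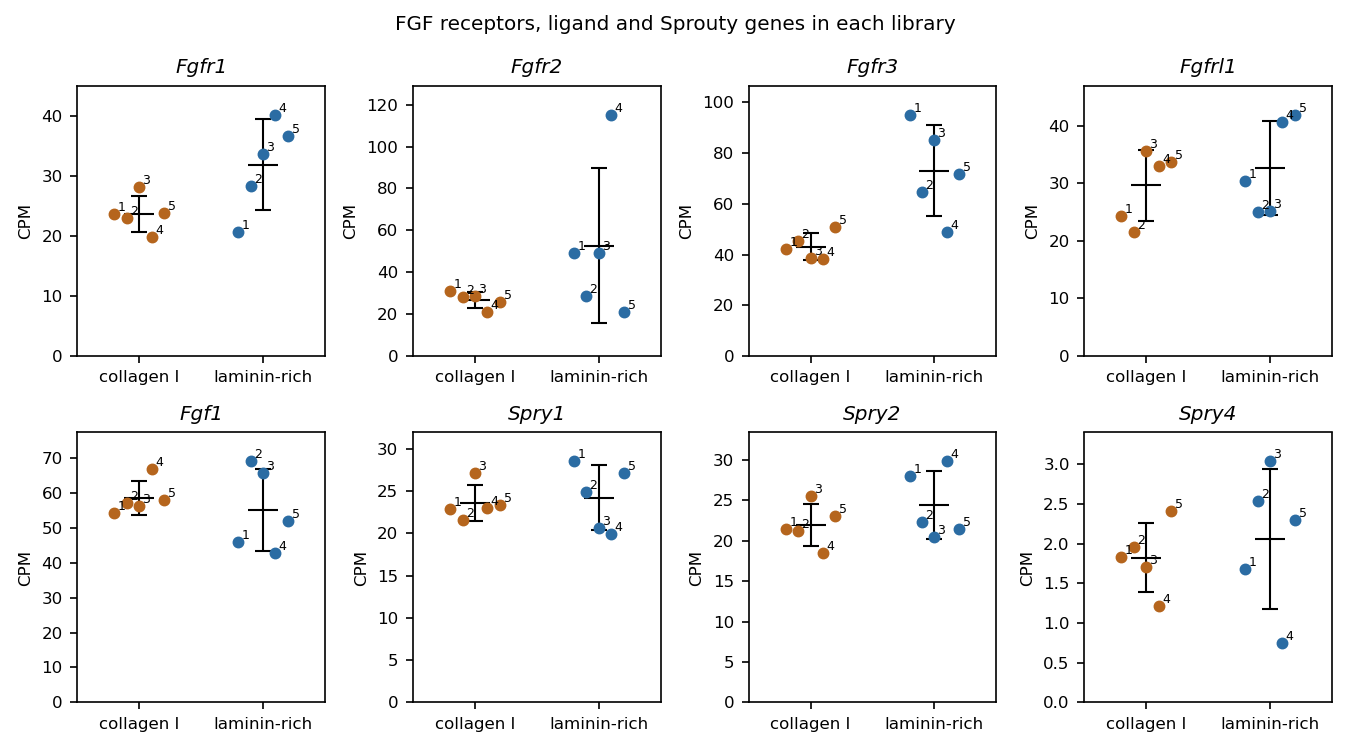
CPM (counts scaled to the same library size) of the 8 members that passed the filter on low counts, 1 point per library with its replicate number, and the mean with SD (n = 5 per group) in black. Laminin replicate 4 is the highest for Fgfr2 (115 CPM) and the lowest of its group for Fgfr3 (48.8 CPM).

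Set side by side per length, the receptor kinases were in a different proportion in laminin replicate 4 than in the other 9 libraries. As CPM per kb of longest transcript, Fgfr1 to Fgfr4 summed to 17.6, 21.2, 21.6, 21.7 and 22.5 in the collagen libraries in increasing order, and to 27.3, 28.9, 37.7, 37.9 and 45.4 in the laminin libraries. The 2 ranges of this sum did not overlap, although those of Fgfr1, Fgfr2, Fgfr3 and Fgfr4 each did. Of all single genes tested, 3.23% had ranges apart. Fgfr2 made up 26.0 of the highest laminin sum, that of replicate 4. Fgfr3 was the largest component in 9 libraries, with a share of 43.0% to 53.1% in collagen and 53.0% to 59.5% in laminin replicates 1, 2, 3 and 5. In laminin replicate 4 its share was 25.3%, and that of Fgfr2 was 57.2%. The ratio of Fgfr2 to Fgfr3 per kb was 2.26 in that library and between 0.280 and 0.714 in the others. A sum over chosen genes is a description, and no test was made of it.

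**Figure D2:**
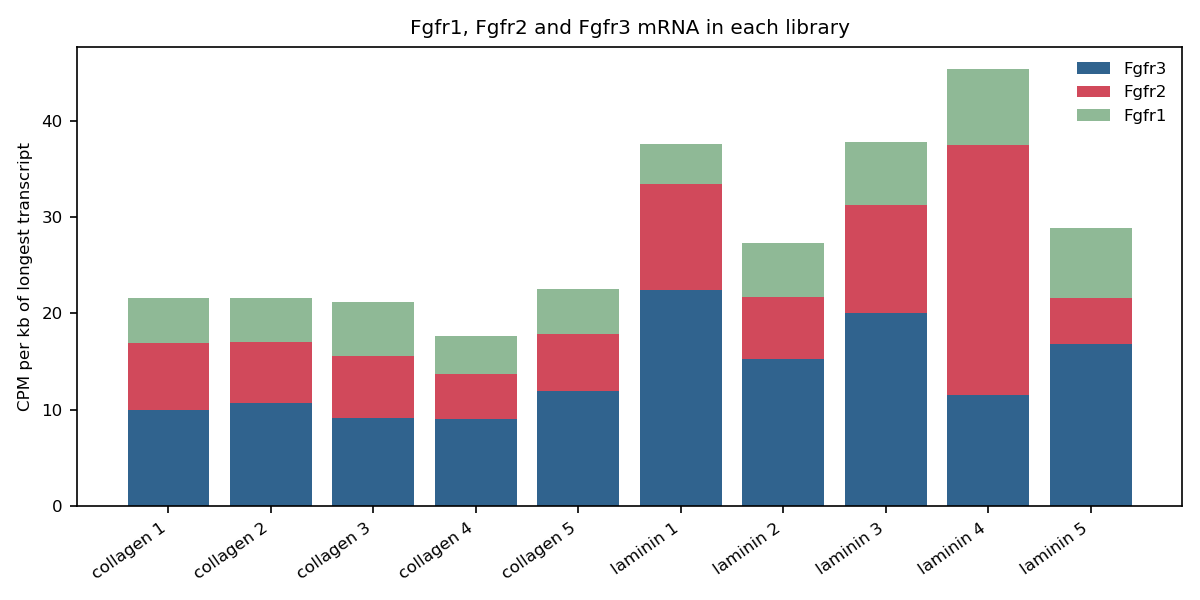
CPM per kb of longest transcript for Fgfr3, Fgfr2 and Fgfr1, stacked for each library. Bars start at 0. Fgfr3 is the largest segment in 9 libraries, and Fgfr2 (57.2% of the sum) in laminin replicate 4.

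Fgf1, a ligand that binds every FGFR, was the only well detected canonical ligand of the members. It was measured at 54.3, 57.1, 56.1, 66.7 and 58.0 CPM in collagen and at 45.9, 68.9, 65.6, 42.8 and 52.0 CPM in laminin. Laminin replicates 1, 4 and 5 were below all collagen libraries and replicate 2 above them, so the collagen values lay inside the laminin range. The log2 difference was -0.09 (SE 0.14), with means of 58.4 ± 4.82 and 55.0 ± 11.7 CPM (SD, n = 5 per group). Fgf1 lies on chromosome 18 from 38838673 to 38929472.

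Fgf2, the other member ligand and a common culture supplement, had 0 counts in all 10 libraries. Over the 62020119 counts of the series this allows up to 0.0484 CPM, for counting error only. Fgf2 lies on chromosome 3 from 37348346 to 37410108. Of its exonic bases, 9.44% overlap those of Nudt6 on the opposite strand, a gene that had 16 to 29 counts per library.

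Among the 20 other FGF ligand genes, which were listed with the earlier results known, 3 passed the filter and 0 were called. Fgf13, an intracellular family member that is not secreted, was at 17.4 ± 4.88 and 18.2 ± 3.28 CPM (SD, n = 5 per group). Fgf18, a secreted ligand, gave a log2 difference of -0.34 (SE 0.56), and Fgf11, also intracellular, -0.32 (SE 0.22). Fgf18 ran from 1.98 to 13.8 CPM in collagen and from 2.30 to 14.1 CPM in laminin. Fgf3, Fgf4, Fgf5, Fgf6, Fgf10, Fgf14, Fgf16 and Fgf20 had 0 counts in every library. The endocrine Fgf15 and Fgf21 had 20 and 23 counts over the collagen libraries and 24 and 32 over the laminin libraries.

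Fgf23, the endocrine ligand that regulates phosphate, was the one ligand whose groups were apart, and it is named here after its values were seen. It had 1, 0, 0, 0 and 0 counts in collagen replicates 1 to 5 and 7, 7, 7, 4 and 8 counts in laminin replicates 1 to 5. Every laminin library was above every collagen library, at counts too low to pass the filter. The ratio of laminin to collagen was 35.4, from 33 counts against 1, and with 1 count on the collagen side its size is poorly known. Because Fgf23 was picked for this pattern, no p or interval is given for it. Fgf23 lies on chromosome 6 from 127072902 to 127081408, with no exonic overlap with another gene.

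**Figure D3:**
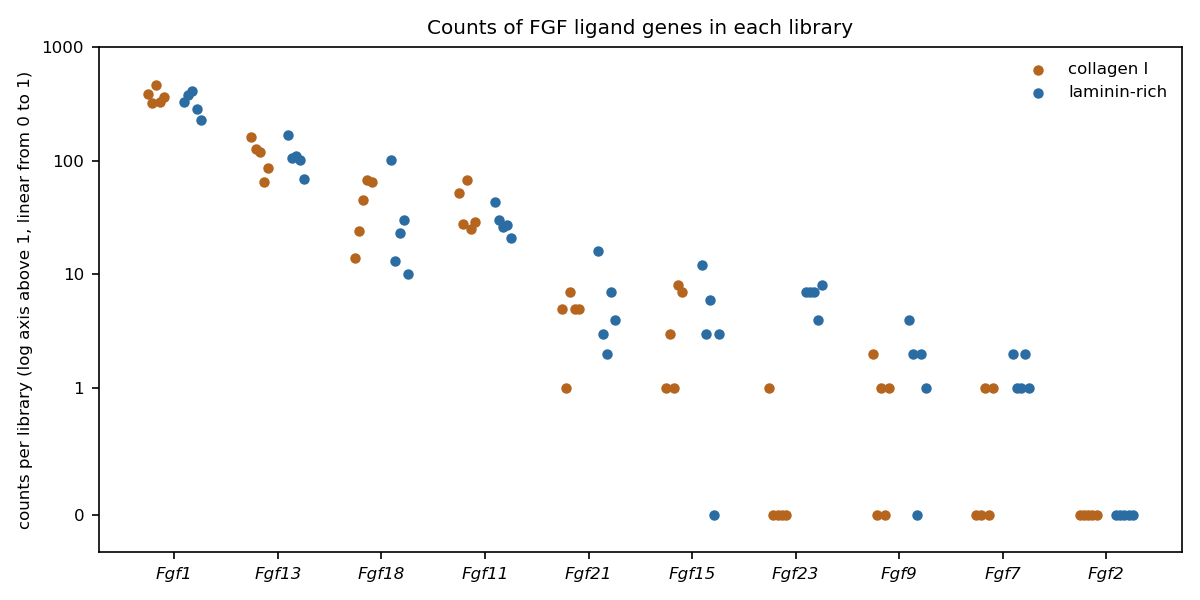
Counts per library for Fgf1, Fgf2 and 8 other FGF ligand genes, on an axis that is logarithmic above 1 and linear from 0 to 1. Fgf1 is the highest in every library, Fgf2 is at 0 throughout, and Fgf23 has 4 to 8 counts in each laminin library against 0 or 1 in collagen.

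The Sprouty genes, which encode inhibitors of RAS and ERK signalling downstream of receptor kinases, had log2 differences of 0.03 to 0.15 between the matrices. Spry1 was measured at 22.8, 21.6, 27.2, 23.0 and 23.4 CPM in collagen and at 28.5, 24.9, 20.6, 19.9 and 27.2 CPM in laminin. Its log2 difference was 0.03 (SE 0.13). All collagen values lay inside the laminin range. Of the exonic bases of Spry1, 24.4% overlap those of Gm42922 on the opposite strand.

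Spry2 was measured at 21.4, 21.2, 25.5, 18.5 and 23.1 CPM in collagen and at 28.0, 22.3, 20.4, 29.8 and 21.4 CPM in laminin. Laminin replicates 1 and 4 were above all collagen libraries, and the other 3 were within their range. Its log2 difference was 0.15 (SE 0.14), with means of 21.95 ± 2.58 and 24.4 ± 4.20 CPM (SD, n = 5 per group). Without laminin replicate 4 it was 0.05.

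Spry4 was the least abundant of the 8, with 6 to 15 counts per library in collagen and 5 to 19 in laminin. It was measured at 1.83, 1.96, 1.70, 1.22 and 2.40 CPM in collagen and at 1.68, 2.54, 3.03, 0.748 and 2.30 CPM in laminin. The lowest and the highest value were both in laminin, in replicates 4 and 3. The log2 difference was 0.15 (SE 0.34), the second largest SE of the 8 after Fgfr2. Spry1 lies on chromosome 3 from 37639947 to 37644598, Spry2 on chromosome 14 from 105891947 to 105896819 and Spry4 on chromosome 18 from 38586247 to 38601415.

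Levels were compared between genes as CPM per kb of longest transcript. In collagen the order was Fgf1 (14.7 ± 1.21, SD, n = 5), Fgfrl1 (12.7 ± 2.67), Spry2 (10.5 ± 1.23), Fgfr3 (10.1 ± 1.23), Spry1 (8.51 ± 0.766), Fgfr2 (6.07 ± 0.871), Fgfr1 (4.69 ± 0.589) and Spry4 (0.384 ± 0.0902). Steps among the first 4 did not exceed the larger SD of the pair, while each later step to Spry4, from that of Fgfr3 to Spry1 on, exceeded it. In laminin the order began with Fgfr3 (17.2 ± 4.24, SD, n = 5), Fgfrl1 (14.02 ± 3.52), Fgf1 (13.8 ± 2.94), Fgfr2 (11.9 ± 8.38) and Spry2 (11.7 ± 2.02). Steps among these genes did not exceed the larger SD of the pair. The order went on with Spry1 (8.73 ± 1.39), Fgfr1 (6.32 ± 1.51) and Spry4 (0.433 ± 0.185), and each step from Spry2 to Spry4 exceeded it. Fgfr4 and Fgf2 came last in both.

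In the edgeR quasi-likelihood fit over 10789 genes with Benjamini-Hochberg adjustment, 0 of 8 members were called at an adjusted p below 0.05, where 0.148% of all genes tested were called. At an unadjusted p below 0.05 there were 3 members, Fgfr1, Fgfr2 and Fgfr3, where the share of all genes was 11.6%. DESeq2 called 1 member, Fgfr3, where it called 1.76% of 12185 genes, and limma-voom called 0. Without laminin replicate 4, edgeR called 1, Fgfr3 again, and without any other single library 0. In 0 of 8 members were the group ranges apart, against 3.23% of all genes. The median log2 difference was 0.15 over the 8 members and 0.01 over all genes tested, with 7 of 8 above 0. Because the members were chosen with this comparison known, nothing is read from these counts.

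Some members varied together over the libraries. Over the 10 libraries, Spry2 had a Pearson r of 0.72 with Fgfr2 (Spearman rho 0.52) and of -0.80 with Fgf1 (rho -0.61) on the log2 CPM scale. Within collagen and within laminin (5 libraries each) the values were 0.66 and 0.74 for Fgfr2, and -0.71 and -0.84 for Fgf1. Without the 2 libraries farthest from the median of Fgfr2 or of Fgf1, r was 0.81 with Fgfr2 and -0.40 with Fgf1, the libraries left out for Fgf1 being laminin replicates 4 and 1. Fgfr1 and Fgfr3 gave an r of 0.23 over all libraries and of -0.57 once the mean of each matrix was subtracted. For this pair r was 0.03 within collagen and -0.71 within laminin. These pairs were singled out of 21 after their values were seen. Values of a pair come from the same libraries and share their depth and length dependence, so they are descriptions with no test.

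Of 10789 tested genes, those with a mean of at least 5 CPM were ranked by how closely their log2 CPM followed each member over the 10 libraries. The genes most like Fgfr2 were Tnc, a matrix glycoprotein (Pearson r = 0.94), Nrep (0.94) and Lama5, a laminin chain (0.93). Tnc was at 40.1 to 64.5 CPM in collagen, at 67.7 to 88.6 CPM in laminin replicates 1, 2, 3 and 5 and at 235 CPM in laminin replicate 4. Without the 2 libraries farthest from the median of Fgfr2, r was 0.71 for Tnc, 0.69 for Nrep and 0.88 for Lama5. With group means subtracted, the closest were Nrep (0.96), Myo5c (0.96) and Prob1 (0.94).

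The genes most like Fgfr3 were Gak, a clathrin-uncoating kinase (r = 0.97), Cd55, a membrane inhibitor of complement (0.94), and Clcn2, a chloride channel (0.93). Cd55 was at 5.69 to 7.49 CPM in collagen and at 18.2, 9.43, 11.3, 7.04 and 9.44 CPM in laminin. Like Fgfr3, it had its lowest laminin value in replicate 4, within the collagen range. For Fgfr1 the closest were Pcdh10 (0.96), Fam117a (0.95) and Ksr1 (0.95), the last a scaffold of the ERK cascade, for Fgfrl1 Pgghg (0.97), Ccdc102a (0.96) and Tmem38a (0.96), and for Fgf1 Aldh1a7 (0.92), Dnajc24 (0.87) and Gon7 (0.86). For Spry1 they were Dnajb1 (0.93), Pgam1 (0.93) and Unc13d (0.91), and for Spry2 Prpf40b (0.94), Sap130 (0.93) and Adamts7 (0.91). They are the highest of many candidates, so these r values carry no test.

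**Figure D4:**
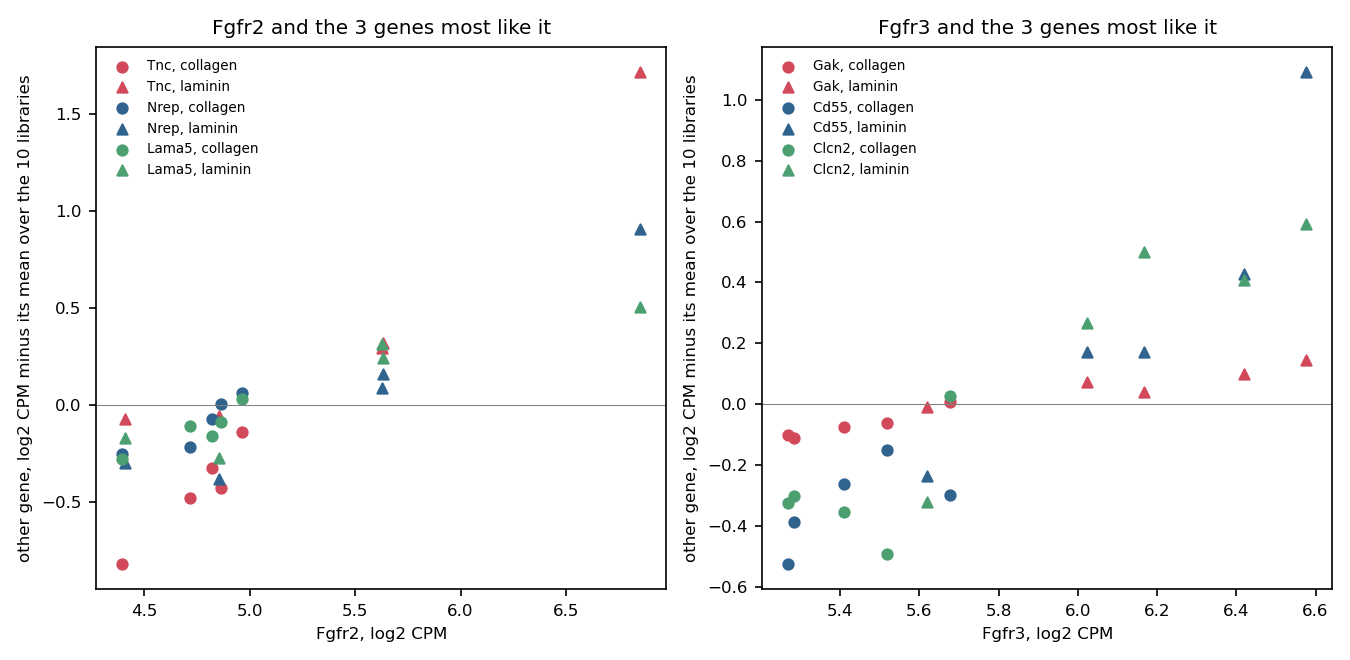
Log2 CPM of Fgfr2 (left) and Fgfr3 (right) on the x axis against the log2 CPM, less its mean over the 10 libraries, of the 3 genes that followed each most closely. Each point is a library, with circles for collagen and triangles for laminin. The Fgfr2 panel has laminin replicate 4 alone at the far right, while Gak in the Fgfr3 panel spans a narrow range.

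Of the 99 other pathway genes in the table, 73 were tested and edgeR called 0 in either direction, where 0.139% of all genes were called higher and 0.00927% lower in laminin. At an unadjusted p below 0.05 there were 12 of 73, against 11.6% of all genes. DESeq2, which gave an adjusted p for 78 of the pathway genes, called 2, Fosl1 and Fgf23, against 1.76% of its genes, and Fgf23 was not among the 73. Nothing is read from the call of Fgf23, which had 1 count in collagen against 33 in laminin. Of the 73, limma-voom called 0. The median log2 difference of the 73 was 0.0024, with 38 above 0. Genes with group ranges apart included Hs6st1, higher in laminin, and Nras, Dusp5 and Fosl1, lower in laminin, which are named after their values were seen. Over all genes, ranges were apart in 1.94% higher and 1.30% lower. Without the 3 collagen libraries whose code begins with B, 14 of the 73 were called, where 2083 of 11018 genes were called. That fit kept only collagen replicates 4 and 5 on the collagen side, and nothing is read from its count.

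Heparan sulfate, the glycan that holds FGF on its receptor, is made and trimmed by enzymes of which 10 of 13 were tested. Their median log2 difference was 0.20, 7 of 10 were above 0, and 0 were called. Sulf2, which removes sulfate groups from the chains outside the cell, was at 55.4 ± 8.86 and 76.9 ± 11.2 CPM (SD, n = 5 per group), a log2 difference of 0.48 (SE 0.14). Ndst1, a sulfotransferase, gave 0.39 (SE 0.19), and Ext1, a chain polymerase, 0.19 (SE 0.08). Hs6st1, another sulfotransferase, was at 32.6 to 41.2 CPM in collagen and 41.2 to 50.2 CPM in laminin, with collagen replicate 5 and laminin replicate 3 level at this rounding.

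Co-receptors and ligand carriers had a median log2 difference of 0.07 over 13 tested genes, with 0 called. Sdc1, a syndecan, was the most abundant at 418 ± 52.1 and 456 ± 56.7 CPM (SD, n = 5 per group). Hspg2, the basement membrane proteoglycan perlecan, gave 0.35 (SE 0.17), with its highest value, 616 CPM, in laminin replicate 4. Flrt1, a membrane protein that binds FGF receptors, gave 0.77 (SE 0.25), from 5.92 ± 2.34 to 10.2 ± 1.53 CPM (SD, n = 5 per group).

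Adaptors and the ERK cascade were centred on no difference, with a median of 0.01 over 22 tested genes, 12 of them above 0 and 0 called. The ERK gene Mapk3 gave -0.12 (SE 0.14). Nras was at 270 to 328 CPM in collagen and 219 to 268 CPM in laminin. Plcg1, a phospholipase bound by the receptors, gave 0.33 (SE 0.19). Cbl, a ubiquitin ligase for receptor kinases, gave 0.53 (SE 0.61).

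Other inhibitors of RAS and ERK signalling, not all of them feedback genes, had a median of -0.01 over 11 tested genes, with 0 called. Lztr1 and Spred1, the most abundant, gave -0.08 (SE 0.11) and -0.14 (SE 0.15). Dusp5, an ERK phosphatase of the nucleus, gave -0.44 (SE 0.15), and Dusp9 -0.38 (SE 0.27). Dusp6, the cytoplasmic ERK phosphatase often read as a gauge of FGF signalling, is named after its values were seen and gave -0.01 (SE 0.12), at 42.2 ± 3.77 and 42.0 ± 5.17 CPM (SD, n = 5 per group).

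ERK-responsive genes had differences on both sides of 0, with a median of -0.15 over 10 tested genes, 3 of them above 0 and 0 called. Fosl1, an AP-1 subunit, was at 53.9 to 82.5 CPM in collagen and 30.2 to 53.8 CPM in laminin, a log2 difference of -0.78 (SE 0.17). Its adjusted p in edgeR was 0.0994, and 57.2% of its exonic bases overlap Ccdc85b on the opposite strand. Etv4, an ETS factor induced by FGF signals, gave -0.57 (SE 0.25), its relative Etv5, named after its values were seen, 0.02 (SE 0.22), and the immediate early gene Egr1 0.48 (SE 0.15). Ier3, the most abundant of the list, gave -0.17 (SE 0.24).

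Splicing regulators of Fgfr2 were also measured, 4 of 4 tested and 0 called, with a median of 0.12. Ptbp1 and Rbfox2 gave -0.01 (SE 0.10) and 0.00 (SE 0.13). Esrp1 and Esrp2 favour the epithelial receptor form and gave 0.83 (SE 0.51) and 0.25 (SE 0.18). Esrp1 was low throughout, at 0.607 to 2.03 CPM in collagen and at 1.82, 2.90, 3.67, 0.299 and 3.68 CPM in laminin. Its lowest value was in laminin replicate 4, the library with the highest Fgfr2. That value is below 0.460 CPM, the limit that a count of 0 allows there, and a link to Fgfr2 was not tested.

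**Figure D5:**
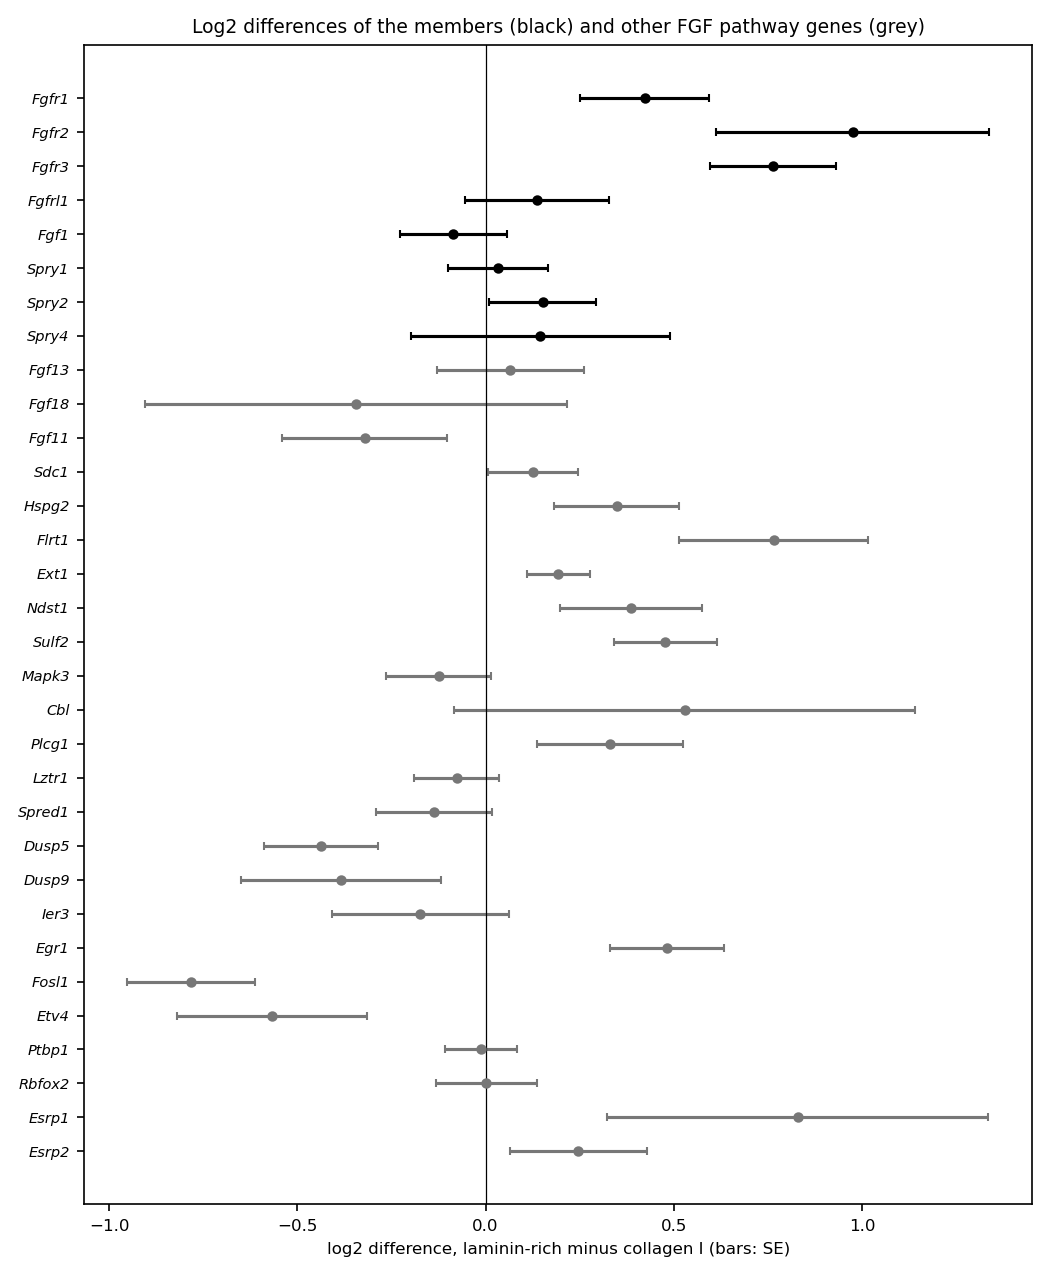
Log2 difference, laminin-rich minus collagen I, with its SE from the edgeR fit (5 libraries per group). The 8 members are in black, and pathway genes named for their abundance or size of difference are in grey. Hs6st1, Nras, Dusp6, Etv5, Fgfbp1 and Ksr1, also named in the text, are not drawn. Fgfr1, Fgfr2, Fgfr3 and, by little, Spry2 (0.15, SE 0.14) lie to the right of 0 by more than their SE. Fgfrl1, Fgf1, Spry1 and Spry4 lie within their SE of 0.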

How the data were processed

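The authors deposited raw counts of reads for each gene symbol, in 1 table with 1 column per library. The genome build GRCm38 (mm10) and DESeq2 are named in the submitters' processing notes. Per the labels' protocols, stranded mRNA libraries were prepared from 30 ng of total RNA. For the aligner, the counter and its strand setting, nothing is given in the sources used here. Columns were matched to libraries by library code and matrix.

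Low-count genes were removed with filterByExpr defaults, and libraries were scaled by TMM factors. The matrices were compared in edgeR 4.0.16 under R 4.3.3 by a two-sided quasi-likelihood F test with matrix alone in the model, adjusted by Benjamini-Hochberg over 10789 genes at a threshold of 0.05. The SE is the log2 difference divided by the square root of F. Log2 CPM has a prior count of 2. Alternatives were DESeq2 1.42.0, limma-voom (limma 3.58.1), other scalings and filters, a replicate block, a length and GC offset (splines of 5 degrees of freedom), each library left out, and the libraries of code letter B or D left out. No pair of the 10 libraries agreed within sampling noise.

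The members and lists were chosen with earlier results of these data known. Named genes were all members, in each list the up to 2 most abundant and the up to 2 of largest absolute difference, any called gene, and for each member of at least 5 CPM the 3 genes of highest Pearson r. Some genes covered by this rule are not reported here. Positions and transcript lengths came from GENCODE M21, matched for 18338 of 18407 symbols, and start windows from RefSeq.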

Additional observations from a re-analysis of the deposited data

How the results depend on the processing

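Members called numbered 0 in edgeR with every scaling, filter and offset tried, in limma-voom and under the replicate block, 1 in DESeq2 (Fgfr3, adjusted p = 0.00603, against 0.0994 in edgeR and a range of 0.00603 to 0.322 over the alternatives), and 0 to 1 when each library was left out in turn, the 1 being Fgfr3 without laminin replicate 4 (0.0334). Other pathway genes called numbered 2 in DESeq2, 1 with no filter and 1 with the length and GC offset (Fosl1). Without the letter B collagen libraries they numbered 14 of 73, where 2083 of 11018 genes were called. Over all genes, 16 were called, against 214 in DESeq2, 29 with no filter, 104 with the offset, 5 without letter D, 2083 without letter B, and 0 (without collagen replicate 3 or 5 or laminin replicate 2) to 64 (without laminin replicate 1) with single libraries left out. The cause of these shifts was not tested. Under the replicate block, 0 genes were called over all genes. The deviations of libraries with the same number from their group means gave r of -0.327, -0.306, -0.113, 0.261 and 0.483. Of the 5 collagen libraries, 1 correlated best with its own number. With only 5 values, of both signs, whether the numbers pair the libraries is not settled.

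Over 20 alternatives, Fgfr1, Fgfr2, Fgfr3, Fgf1 and Spry2 kept their sign in all 20, Fgfrl1 and Spry4 in 19 and Spry1 in 15. Fgfr2 ranged from 0.45 (without laminin replicate 4) to 1.17 and Fgfr3 from 0.65 to 0.86. All 200 rescaled CPM values of the members lay within 1 group SD of the main value. This shows little, as TMM factors lay between 0.958 and 1.023 and Fgf2 was at 0 throughout. Depth limits Spry4, Fgfr4 and Fgf2, at 0 to 19 counts per library.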

Other observations

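Some pathway genes varied more among libraries of one matrix than between matrices. Cbl was at 37.1, 32.4 and 10.8 CPM in collagen replicates 1 to 3, whose library code has the letter B, and at 2.03 and 4.17 CPM in replicates 4 and 5, of letter D. In laminin it was at 15.8, 24.7, 44.6, 29.6 and 10.4 CPM. Fgfbp1, a secreted carrier that releases FGF from the matrix, ran from 24.8 to 91.3 CPM in collagen and from 7.33 to 109 CPM in laminin, where laminin replicate 4 was the lowest and replicate 1 the highest. Fgf18 was highest in collagen replicates 4 and 5 (13.8 and 10.4 CPM) and in laminin replicate 1 (14.1 CPM), as Fgfbp1 was. The code letters occur in a single matrix each, so letter and matrix cannot be told apart.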
